A study of Homo sapiens with 6 samples.

Results

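The proteasome genes described here are the PSM genes: 46 of the 36887 genes counted in an RNA-seq experiment on 5637 cells, an established human bladder carcinoma line. They were chosen by symbol (PSMA, PSMB, PSMC, PSMD, PSME, PSMF or PSMG and a number), and PSMD10 was left out of the set. The experiment asked which transcripts change when YKT6, a SNARE protein of vesicle fusion, is depleted. The cells received siNC (3 samples, labelled WT) or siYKT6 (3 samples, labelled YKT6 knockdown), and RNA was collected 48 h after transfection. All 6 samples came from the same line in the same medium and carry the same batch label. The sources used here do not say whether the replicates were separate cultures or whether 1 siRNA was used for all 3 siYKT6 samples, so p-values measure the spread between these samples, which may be technical.

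The proteasome is the protease that degrades proteins tagged with ubiquitin. Its core particle is a barrel of stacked rings, in which the alpha (PSMA) rings form the gates and the beta (PSMB) rings hold the catalytic sites. A regulatory cap, built of ATPases (PSMC) and non-ATPase subunits (PSMD), binds ubiquitin chains, removes them and threads the substrate into the barrel. Other activators (PSME) can take the place of the cap, chaperones (PSMG, PSMD5, PSMD9) help to assemble the parts, and interferon-γ induces the subunits PSMB8, PSMB9 and PSMB10, which replace PSMB5, PSMB6 and PSMB7 to make the immunoproteasome.

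The libraries held 45205238 to 64982015 counted reads, and the members took 0.552% to 0.584% of them. YKT6 (chromosome 7, 44200968 to 44214294, GRCh38) had 64.5, 65.3 and 68.2 CPM (reads per 1000000, on library sizes adjusted by TMM) with siNC and 17.7, 19.4 and 17.3 CPM with siYKT6. Its level with siYKT6 was 27.5% of that with siNC, a log2 fold change of -1.86 with a standard error (SE) of 0.0477 (edgeR, adjusted p = 5.31e-17). The exact two-sided permutation test gave p = 0.1, the smallest that 3 against 3 samples allow. Epithelial markers were well detected, at 4502 to 4635 CPM summed over 10 genes with siNC and 3372 to 3561 CPM with siYKT6, so the sum was lower in every siYKT6 library. Of the 10, 6 fell (KRT5, TP63, KRT13, KRT19, KRT8 and CDH1), EPCAM rose and KRT7, KRT18 and GATA3 had no call. The share called was 70%, beside 30.8% of all tested genes and 45.8% of those at or above the lowest proteasome member's mean CPM. Leukocyte markers summed to 3.60 to 5.34 CPM over 10 genes, nearly all of it CD68, and were lower with siYKT6. Endothelial markers summed to 0.981 to 2.01 CPM over 7 genes and fibroblast markers to 37.6 to 44.9 CPM over 7 genes, most of it COL1A1. Both sums were higher in every siYKT6 library. Of single tested genes 41.8% were separated between the groups, in either direction. PTPRC, CD3E, MS4A1 and CDH5, which define leukocytes and endothelium, were at or near 0. The endothelial gene VWF was also low but rose, from a mean of 0.442 CPM with siNC to 0.921 CPM with siYKT6. Its log2 fold change was 1.01 (adjusted p = 0.0132, edgeR). Of the 3 endothelial genes tested 1 rose, 0 fell and 2 had no call. The part of these sums in the results below was not tested, and in bulk RNA fewer cells of a type and less RNA per cell cannot be told apart.

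After YKT6 knockdown the proteasome genes moved little and in both directions. Of the 46 members 45 passed the filter on low counts. At an adjusted p under 0.05 in edgeR's quasi-likelihood fit 6 rose (PSMC2, PSMG3, PSMD9, PSMD1, PSMD2 and PSMA6) and 6 fell (PSMG4, PSMC4, PSMG1, PSME3, PSMD12 and PSME4), and 33 had no call. That is 26.7% of the tested members, against 30.8% of all 21036 tested genes, of which 14.6% were higher and 16.3% lower. All tested members had a mean of at least 4.55 CPM, and among the 11853 genes at or above that level 45.8% were called. The median log2 fold change of the tested members was -0.00011, beside 0.0022 for all tested genes, and the median size of change without its sign was 0.059, beside 0.126 for the genes at or above the members' lowest level.

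Every tested member stayed between log2 fold changes of -0.31 and 0.24. Only PSMG4 passed 1.2-fold in either direction, 1 of 45 members, whereas 20.2% of the genes at or above the members' lowest level did. In 15 members the siYKT6 libraries lay wholly above (9) or below (6) the siNC libraries, and 41.8% of all tested genes were separated in this way. Summed over all members, the level was 5579, 5593 and 5665 CPM with siNC and 5502, 5609 and 5814 CPM with siYKT6, so the groups overlapped.

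**Figure D1:**
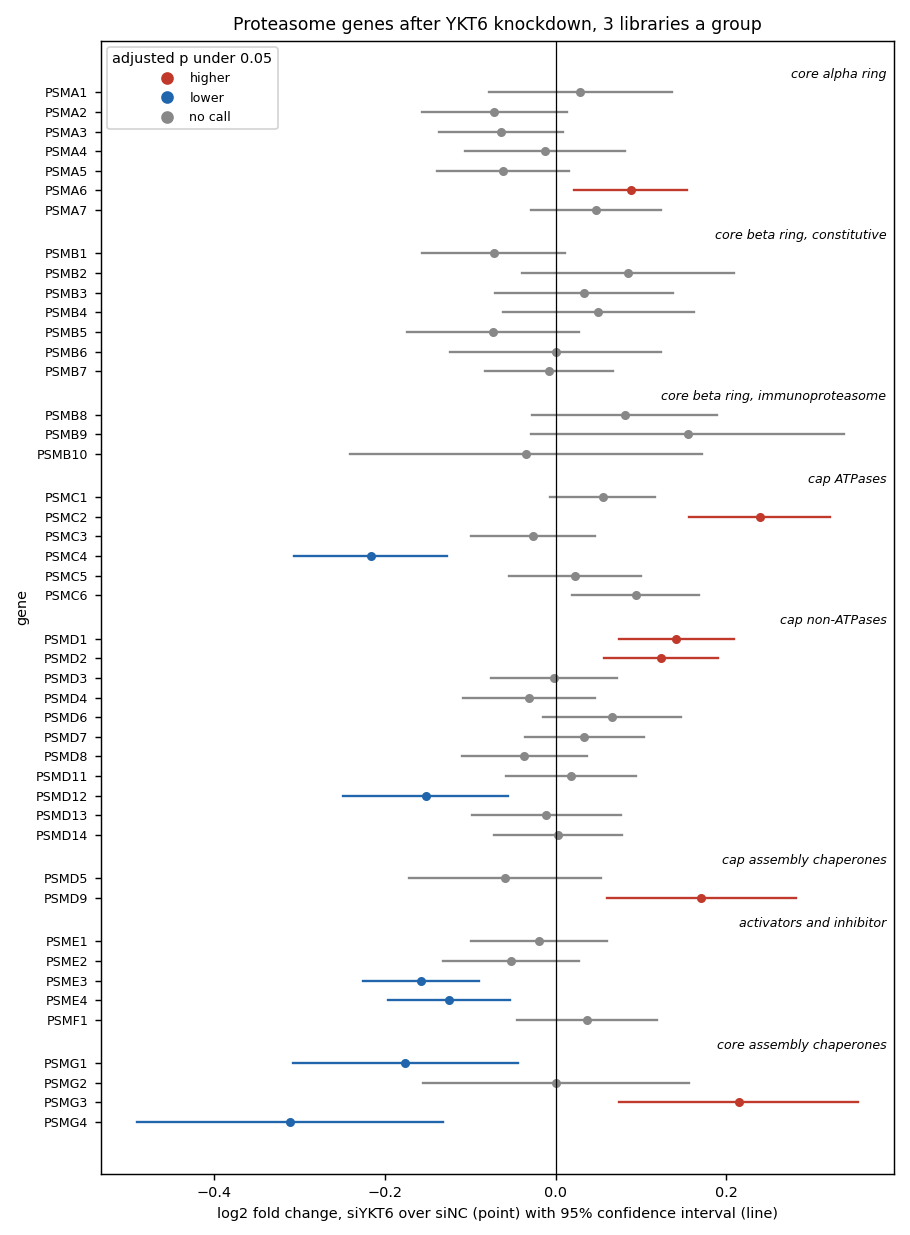
Log2 fold change of the 45 tested proteasome genes (siYKT6 over siNC, horizontal axis), with 95% confidence intervals as lines, grouped by role; colours mark genes with an adjusted p under 0.05. All points lie between -0.31 and 0.24, 6 of them called higher and 6 lower, and the constitutive beta ring holds no call.

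The genes of the core particle did not move as a group. Of its 14 constitutive alpha and beta subunits 1 rose (PSMA6), 0 fell and 13 had no call. That is 7.14% called, beside 30.8% of all tested genes and 45.8% of those at or above the lowest member's mean CPM. At an unadjusted p under 0.05 the counts were again 1 and 0, DESeq2 called 1 and 0, and limma-voom called 1 and 0. The intervals of the 13 without a call ran from -0.17 to 0.21 on the log2 scale. Summed over the 14 genes, the core had 1613, 1599 and 1612 CPM with siNC and 1553, 1610 and 1687 CPM with siYKT6. The siYKT6 libraries therefore lay on both sides of the siNC libraries, with siYKT6_1 lowest and siYKT6_3 highest.

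PSMA6 (chromosome 14), an alpha ring subunit, had 295.5, 299.9 and 292.5 CPM with siNC and 310.4, 308.9 and 324.2 CPM with siYKT6. Its siYKT6 libraries all lay above the siNC libraries, with a log2 fold change of 0.088 (SE 0.0319, adjusted p = 0.0417, edgeR). The call was lost with the replicate number as a block (adjusted p = 0.0664, edgeR) and without any 1 of siNC_1, siNC_3, siYKT6_1, siYKT6_2 or siYKT6_3 (adjusted p from 0.0538 to 0.132). Of its exon bases 14.1% are shared on the same strand with RP11-561B11.2, which had a log2 fold change of 0.088 as well. That row held 13920 to 21374 counts a library, close to the 13219 to 20209 of PSMA6, and the sources used here do not say whether a read over both genes was counted for each.

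The other alpha subunits (PSMA1, PSMA2, PSMA3, PSMA4, PSMA5 and PSMA7) had log2 fold changes from -0.072 to 0.047. PSMA2, the lowest of them, shares 14.6% of its exon bases on the same strand with RP11-111K18.1. That row had a log2 fold change of -0.18 (adjusted p = 0.00106, edgeR). It held 3125 to 4329 counts a library beside 2349 to 3296 of PSMA2, and its part in the result was not tested. PSMA4 had 477.5, 452.9 and 469.9 CPM with siNC and 417.2, 476.4 and 494.7 CPM with siYKT6. Its spread was the widest of the alpha ring, with siYKT6_1 below and siYKT6_2 and siYKT6_3 within or above the siNC range. PSMA7 was at 253.2 ± 6.19 CPM with siNC and 261.7 ± 13.1 CPM with siYKT6 (SD, n = 3), and its log2 fold change was 0.047 (95% interval -0.029 to 0.12). PSMA8, the testis form of an alpha subunit, was not analysed here.

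The 7 constitutive beta subunits lay between -0.073 (PSMB5) and 0.085 (PSMB2) on the log2 scale, and in all 7 the libraries of both groups overlapped. PSMB5, the chymotrypsin-like subunit and the main target of proteasome inhibitor drugs, had 35.1, 33.1 and 36.2 CPM with siNC and 32.8, 31.6 and 35.0 CPM with siYKT6. PSMB6, the caspase-like subunit, had 18.3, 15.9 and 17.9 CPM with siNC and 16.9, 17.5 and 17.8 CPM with siYKT6, a log2 fold change of -0.00010 (95% interval -0.12 to 0.12). PSMB7, the trypsin-like subunit, had 115.2, 121.2 and 120.5 CPM with siNC and 114.8, 120.4 and 120.0 CPM with siYKT6. For these 3 catalytic subunits no difference was detectable beyond the spread between libraries (adjusted p = 0.285, 0.999 and 0.904 from edgeR). PSMB1, PSMB2, PSMB3 and PSMB4, which have no catalytic site, had log2 fold changes of -0.073, 0.085, 0.034 and 0.050.

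The immunoproteasome subunits were present at unequal levels and did not pass the test. PSMB8 (chromosome 6, 32840717 to 32844703) had 38.3, 37.8 and 37.3 CPM with siNC and 39.8, 36.6 and 43.6 CPM with siYKT6. PSMB9 had 5.68, 5.14 and 5.14 CPM with siNC and 6.05, 5.81 and 5.85 CPM with siYKT6. PSMB10 had 4.76, 4.48 and 4.58 CPM with siNC and 4.15, 4.50 and 4.85 CPM with siYKT6. PSMB9 was above the siNC range in all 3 siYKT6 libraries and the other genes overlapped. Their log2 fold changes were 0.081 (PSMB8, 95% interval -0.027 to 0.19), 0.15 (PSMB9, -0.028 to 0.34) and -0.035 (PSMB10, -0.24 to 0.17), with adjusted p of 0.267, 0.203 and 0.836 (edgeR). Without siYKT6_2 PSMB8 had a log2 fold change of 0.14 and passed the test (adjusted p = 0.0444, edgeR). Of the exon bases of PSMB8 21.2% lie opposite those of PSMB8-AS1, and PSMB10 shares 34.8% with CTC-479C5.12 on the same strand.

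Divided by exon length, PSMB8 was as abundant as PSMB5, with ratios of 0.959, 1.01 and 0.906 with siNC and 1.07, 1.02 and 1.10 with siYKT6. PSMB9 was at 0.146, 0.152 and 0.135 of PSMB6 with siNC and 0.169, 0.156 and 0.155 with siYKT6, and PSMB10 was at 0.0349 to 0.0399 of PSMB7 over all 6 libraries. The PSMB8 and PSMB9 ratios did not overlap between the groups, although no gene in them passed the test alone, and the ratios are given as a description. Interferon-γ also induces genes beside PSMB8 and PSMB9 in the antigen presentation region, so a list of 11 such neighbours and inducers was examined. Of these 1 rose (B2M, the light chain of MHC class I, by 0.097), 3 fell (IFNGR1 by 0.25 and IFNGR2 by 0.29, the interferon-γ receptor chains, and HLA-B by 0.12, all on the log2 scale) and 7 had no call. That is 36.4% called, beside 30.8% of all tested genes and 45.8% of those at or above the lowest member's mean CPM. The list's median log2 fold change was -0.084. B2M lost its call without siNC_1, siNC_3, siYKT6_1 or siYKT6_3 (adjusted p up to 0.12), and HLA-B with upper quartile scaling and without siNC_2, siNC_3, siYKT6_1 or siYKT6_2 (up to 0.143, edgeR). IRF1 and NLRC5, which switch on interferon and MHC class I genes, had log2 fold changes of -0.092 and -0.25 with no call, and were called lower in some alternatives. These were the omission of siYKT6_3 (adjusted p = 0.0275, edgeR), at least 1 CPM in all samples (0.0453) and limma-voom (0.0491) for IRF1, and the omission of siNC_2 (adjusted p = 0.0462, edgeR) for NLRC5. TAP1, the transporter gene next to PSMB9, was at 16.4 ± 0.605 CPM with siNC and 16.5 ± 0.298 CPM with siYKT6 (SD, n = 3). PSMB11, the beta subunit of the thymus, had 2 reads in siNC_3 and 0 in the other 5 libraries and was not tested.

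**Figure D2:**
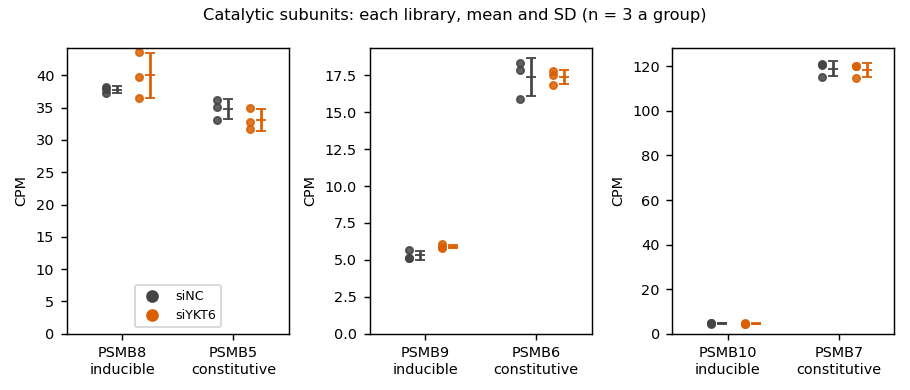
CPM (vertical axes, from 0) of the 3 inducible catalytic subunits beside their constitutive counterparts, with each library as a point and the mean and SD of 3 libraries a group as bars. PSMB8 and PSMB5 are at like levels, PSMB10 is near 4.6 CPM beside about 119.0 CPM of PSMB7, and none of the 6 genes passed the test.

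In the regulatory cap a few subunits moved, in opposite directions. Of its 19 members, PSMD5 and PSMD9 included, 4 rose, 2 fell and 13 had no call. That is 31.6% called, beside 30.8% of all tested genes and 45.8% of those at or above the lowest member's mean CPM. The median log2 fold change of the cap members was 0.018. Summed, the cap genes had 2994, 2995 and 3064 CPM with siNC and 3031, 3059 and 3146 CPM with siYKT6, and the groups overlapped.

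Among the 6 ATPases, which form the ring that unfolds substrates, PSMC2 rose and PSMC4 fell. The share called was 33.3%, beside 30.8% of all tested genes and 45.8% of those at or above the lowest member's mean CPM. PSMC2 (chromosome 7, 103344254 to 103369395) had 97.9, 98.1 and 93.9 CPM with siNC and 112.9, 108.7 and 120.5 CPM with siYKT6. All 3 siYKT6 libraries were above the siNC range, and the log2 fold change was 0.24 (SE 0.0396, adjusted p = 6.84e-05, edgeR), the largest rise among the members. PSMC4 (chromosome 19) had 46.1, 42.3 and 45.2 CPM with siNC and 38.8, 37.7 and 38.4 CPM with siYKT6. Here all 3 siYKT6 libraries were below the siNC range, and the log2 fold change was -0.22 (SE 0.0429, adjusted p = 0.000476, edgeR). Both calls held under all 14 alternative settings and omissions of a library.

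PSMC6 stood at the threshold. It had 99.96, 101.5 and 98.9 CPM with siNC and 105.3, 104.6 and 110.6 CPM with siYKT6, a log2 fold change of 0.094 with adjusted p = 0.0503 (edgeR), which passed in 7 of 14 alternatives. PSMC1 had a log2 fold change of 0.055 (adjusted p = 0.176, edgeR) with all siYKT6 libraries above the siNC range, and 75.8% of its exon bases lie opposite those of NRDE2. PSMC3 and PSMC5 were at -0.026 and 0.023 on the log2 scale, with overlapping groups.

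The promoters of PSMC2 and PSMC4 are shown because these ATPase genes moved furthest apart within the ring. The windows run from 250 bases before to 50 bases after the start site (RefSeq, GRCh38.p14, both on the plus strand, PSMC2 at chr7:103347393-103347692 and PSMC4 at chr19:39970915-39971214). Capitals mark matches to 3 motifs of factors in the lists, searched on both strands: CCAAT (the box bound by NF-Y), TGACNNNGC (the core of the antioxidant response element, bound by NFE2L1 and NFE2L2 with small MAF proteins) and GAAANNGAA (the core of interferon response elements).
PSMC2: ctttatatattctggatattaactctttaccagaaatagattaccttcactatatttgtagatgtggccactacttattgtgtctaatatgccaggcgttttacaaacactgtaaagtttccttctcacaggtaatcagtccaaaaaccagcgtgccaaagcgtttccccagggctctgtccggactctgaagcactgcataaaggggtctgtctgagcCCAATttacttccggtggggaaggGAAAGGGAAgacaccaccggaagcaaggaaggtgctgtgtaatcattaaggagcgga
PSMC4: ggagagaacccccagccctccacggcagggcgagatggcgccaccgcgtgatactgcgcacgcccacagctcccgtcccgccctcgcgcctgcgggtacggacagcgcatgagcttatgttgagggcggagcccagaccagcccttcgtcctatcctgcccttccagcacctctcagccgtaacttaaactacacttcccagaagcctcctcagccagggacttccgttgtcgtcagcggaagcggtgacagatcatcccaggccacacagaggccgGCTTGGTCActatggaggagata
PSMC2 holds a CCAAT box at -31 and the interferon response core at -7, and PSMC4 holds the antioxidant response core at 28, on the minus strand. Windows were found for 40 members, and PSMA7, PSMB1, PSMB6, PSMB7, PSMD4 and PSMG3 had none. The antioxidant response core was in 15 of the 40 (37.5%), beside 18.9% of tested genes with a window and 13.3% of all 35116 windows. CCAAT was in 19 (47.5%, beside 42.8% of tested genes and 34.6% of all windows) and the interferon response core in 8 of the 40, beside 9.0% of tested genes and 8.11% of all windows. The shares of members and of tested genes count a gene once if any of its windows matched, while those of all windows count each window. A match is a run of letters and not a measured binding site. Of the 15 with the antioxidant response core, 2 (PSMD1 and PSMD9) rose and 4 (PSMC4, PSMD12, PSME4 and PSMG1) fell. Among all tested genes 14.6% were higher and 16.3% lower. Of those at or above the lowest member's mean CPM 45.8% were called in either direction. Whether the motif goes with the direction of change was not tested.

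Of the 11 non-ATPase cap subunits PSMD1 and PSMD2, the largest scaffold subunits, rose and PSMD12 fell. The share called was 27.3%, beside 30.8% of all tested genes and 45.8% of those at or above the lowest member's mean CPM. PSMD1 (chromosome 2) had 143.8, 148.2 and 147.3 CPM with siNC and 162.0, 160.6 and 162.0 CPM with siYKT6, a log2 fold change of 0.14 (SE 0.0324, adjusted p = 0.00186, edgeR). PSMD2 (chromosome 3), which binds ubiquitin and shuttle proteins, had 321.6, 324.2 and 335.5 CPM with siNC and 351.9, 351.8 and 365.8 CPM with siYKT6, a log2 fold change of 0.12 (SE 0.032, adjusted p = 0.00492, edgeR). In both genes the groups were separate, as in 41.8% of all tested genes, and both calls held in all 14 alternatives.

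PSMD12 (chromosome 17), a subunit of the cap's lid, had 180.8, 180.0 and 175.3 CPM with siNC and 145.3, 163.4 and 173.8 CPM with siYKT6. The siYKT6 libraries were all below the siNC range but spread widely, with siYKT6_1 lowest. The log2 fold change was -0.15 (SE 0.0463, adjusted p = 0.0153, edgeR), which was -0.083 without siYKT6_1 (adjusted p = 0.145) and -0.14 without siNC_1 (adjusted p = 0.0635). The other 8 (PSMD3, PSMD4, PSMD6, PSMD7, PSMD8, PSMD11, PSMD13 and PSMD14) lay between -0.037 and 0.066 on the log2 scale. Among them are the ubiquitin receptor PSMD4, at 165.0 ± 5.37 CPM with siNC and 161.6 ± 6.75 CPM with siYKT6, and PSMD14, the deubiquitinase of the lid, at 97.5 ± 3.33 and 97.6 ± 0.481 CPM (SD, n = 3).

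**Figure D3:**
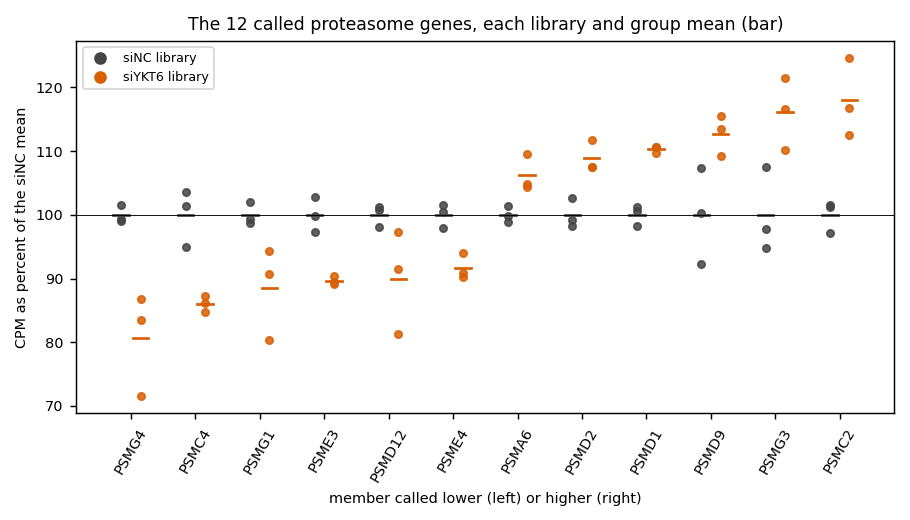
The 12 proteasome genes with a call, as CPM in percent of the siNC mean (vertical axis), with each library as a point and each group mean as a bar. In all 12 the siYKT6 libraries lie apart from the siNC libraries, and the means run from 80.6% (PSMG4) to 118.0% (PSMC2). The 12 were picked by the test on these same libraries, and 41.8% of all tested genes were separated.

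Of the activators, the nuclear PSME3 and PSME4 fell. PSME3, which caps the core in the nucleus without ATP, had 219.2, 231.5 and 224.8 CPM with siNC and 200.6, 201.6 and 203.5 CPM with siYKT6. PSME4, a large single-chain activator linked to histone degradation, had 130.9, 132.3 and 127.5 CPM with siNC and 122.4, 117.5 and 118.3 CPM with siYKT6. In both the groups were separate, with log2 fold changes of -0.16 (PSME3, chromosome 17, SE 0.0325, adjusted p = 0.000706) and -0.12 (PSME4, chromosome 2, SE 0.0343, adjusted p = 0.00782, edgeR), and both held in all 14 alternatives. The interferon-inducible pair did not pass the test. PSME1 had 359.5, 367.7 and 364.9 CPM with siNC and 335.3, 361.1 and 381.4 CPM with siYKT6, which spanned the siNC range on both sides. PSME2 had 105.6, 109.8 and 113.2 CPM with siNC and 103.6, 103.2 and 110.4 CPM with siYKT6. PSMF1, an inhibitor of the core in the test tube, had a log2 fold change of 0.037 (adjusted p = 0.535, edgeR). Of the 5 genes 2 fell, 0 rose and 3 had no call. That is 40% called, beside 30.8% of all tested genes and 45.8% of those at or above the lowest member's mean CPM. The counts among the 5 were the same at an unadjusted p under 0.05 and with DESeq2.

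Of the 6 assembly chaperones (PSMG1 to PSMG4, PSMD5 and PSMD9) 2 rose, 2 fell and 2 had no call (66.7% called), beside 30.8% of all tested genes and 45.8% of those at or above the lowest member's mean CPM. PSMG1, which with PSMG2 builds the alpha ring, had 16.8, 16.4 and 16.3 CPM with siNC and 13.3, 15.6 and 14.97 CPM with siYKT6. PSMG2 had 9.10, 9.63 and 10.6 CPM with siNC and 9.51, 10.4 and 9.45 CPM with siYKT6. PSMG1 fell by 0.18 on the log2 scale (SE 0.0632, adjusted p = 0.0393, edgeR) and its partner PSMG2 had a log2 fold change of 0.00095 (95% interval -0.15 to 0.16). The call of PSMG1 was lost in 7 of 14 alternatives, among them upper quartile scaling, no filter, DESeq2 (adjusted p = 0.0609), omission of any siNC library and omission of siYKT6_1 (-0.11, adjusted p = 0.247).

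PSMG3 and PSMG4, the second pair of alpha ring chaperones, moved in opposite directions. PSMG3 had 10.8, 12.2 and 11.1 CPM with siNC and 12.5, 13.3 and 13.8 CPM with siYKT6. PSMG4 had 7.71, 7.53 and 7.55 CPM with siNC and 6.34, 5.44 and 6.60 CPM with siYKT6. Neither pair of groups overlapped, and the log2 fold changes were 0.21 (PSMG3, chromosome 7, SE 0.0674, adjusted p = 0.0187) and -0.31 (PSMG4, chromosome 6, SE 0.0858, adjusted p = 0.00801, edgeR). PSMG3 lost its call without any of siNC_1, siNC_3, siYKT6_2 or siYKT6_3 (adjusted p from 0.0512 to 0.0792), and PSMG4 without siYKT6_2 (-0.23, adjusted p = 0.063). Of the exon bases of PSMG4 13.3% lie opposite those of SLC22A23, which fell by 0.37 on the log2 scale (adjusted p = 0.000183, edgeR), and its part in the result was not tested.

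The cap chaperone PSMD9 had 22.9, 26.6 and 24.9 CPM with siNC and 28.1, 27.1 and 28.6 CPM with siYKT6. Its groups were separate by a narrow margin, with a log2 fold change of 0.17 (SE 0.053, adjusted p = 0.0174, edgeR), and the call was lost without siNC_1, siNC_3, siYKT6_1 or siYKT6_3 (adjusted p from 0.0505 to 0.108). PSMD9 shares 14.9% of its exon bases with RP11-87C12.2 on the same strand, and that row held 972 to 1690 counts a library beside 1024 to 1830 of PSMD9. PSMD5, which guards free cap ATPases, was at 27.0 ± 1.80 CPM with siNC and 25.9 ± 1.26 CPM with siYKT6 (SD, n = 3), a log2 fold change of -0.059 (adjusted p = 0.456, edgeR).

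Levels within the set were far more unequal than the changes. Divided by exon length, the members with siNC ran from 0.729 CPM per 1000 exon bases (PSMG4) to 204.4 (PSME1). Within the alpha ring, whose subunits occur once each in a ring, PSMA1 was at 7.67 and PSMA7 at 144.7, and in the constitutive beta ring PSMB2 was at 3.38 and PSMB7 at 66.6 CPM per 1000 exon bases. The cap ATPases ran from 13.4 (PSMC6) to 176.9 (PSMC3) on the same scale. The exon length joins the exons of all annotated isoforms, so an isoform mix changes these values. PSMA1 shares 24.7% of its exon bases with RP11-140L24.4 on the same strand. That row held 1630 to 2301 counts a library beside 1209 to 1664 of PSMA1. Between libraries of a group the spread was small: the coefficient of variation of a member was 2.78% with siNC and 3.13% with siYKT6 at the median. siYKT6_3 was the highest of its group in 31 of the 45 tested members, and the members took 0.584% of its reads, the largest share of any library. Without siYKT6_3 3 members were called higher and 6 lower.

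**Figure D4:**
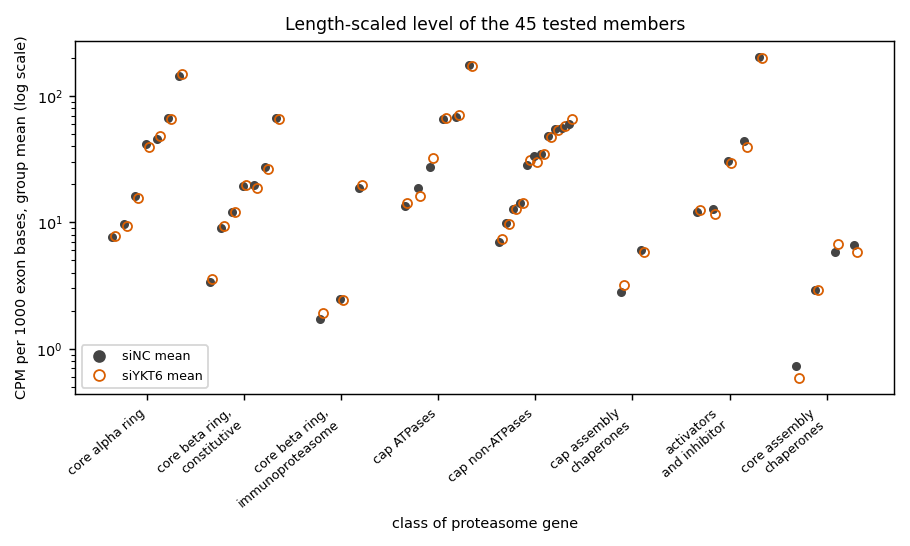
Group means of the 45 tested members in CPM per 1000 exon bases (vertical log axis), by class; filled points are siNC and open points siYKT6. The levels span 0.729 to 204.4 with siNC, while the open point of each gene lies close to its filled point.

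Genes that work with the proteasome were taken from lists of its partners, drivers and delivery factors. Of 41 tested genes 6 rose, 13 fell and 22 had no call, which makes 46.3% of the list called, beside the background of 45.8% among genes at or above the members' lowest level. Their median log2 fold change was -0.034 and the median size without sign 0.10. Of the cap subunits that lack a PSM symbol, ADRM1, a ubiquitin receptor, rose by 0.13 (adjusted p = 0.0163, edgeR) and SHFM1, the small subunit now named SEM1, fell by 0.20 (adjusted p = 0.00593, edgeR) on the log2 scale. The libraries of SHFM1 overlapped, with 592.4, 490.3 and 592.7 CPM with siNC and 515.6, 478.7 and 464.0 CPM with siYKT6. Both genes lost their call without siNC_1 (0.057 and 0.0608), ADRM1 also without siYKT6_3 and SHFM1 without siNC_3 and with DESeq2 (adjusted p = 0.117).

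Among 5 deubiquitinases and ligases of the proteasome UBE3C fell and the other 4 did not pass the test. The share called was 20%, beside 30.8% of all tested genes and 45.8% of those at or above the lowest member's mean CPM. UBE3C (chromosome 7), the ligase that extends ubiquitin chains on substrates held at the proteasome, had 129.1, 129.9 and 131.4 CPM with siNC and 92.2, 89.1 and 80.0 CPM with siYKT6. All 3 siYKT6 libraries were far below the siNC range, with a log2 fold change of -0.58 (SE 0.043, adjusted p = 1.13e-09, edgeR). The deubiquitinase genes USP14 and UCHL5 had log2 fold changes of 0.076 (adjusted p = 0.124) and 0.054 (adjusted p = 0.307, edgeR). The ligase gene UBE3A was just outside the threshold (-0.085, adjusted p = 0.0515) and was called lower in 5 alternatives, namely without siNC_1, with at least 1 CPM in all samples, with DESeq2, with limma-voom and with halved counts (adjusted p from 0.0371 to 0.0481).

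Among 10 assembly, import and adaptor factors 4 fell and 1 rose. That is 50% called, beside 30.8% of all tested genes and 45.8% of those at or above the lowest member's mean CPM. AKIRIN2 and IPO9, which carry proteasomes into the nucleus, both fell by 0.30 on the log2 scale (adjusted p = 0.000403 and 4.49e-07, edgeR). AKIRIN2 was at 18.4 ± 1.02 CPM with siNC and 14.9 ± 0.605 CPM with siYKT6 (SD, n = 3), and IPO9 had 251.1, 244.2 and 260.4 CPM and 208.4, 204.3 and 199.95 CPM. These import factors were lower in all 3 siYKT6 libraries, and 41.8% of all tested genes were separated in 1 direction or the other. KIAA0368, a proteasome adaptor now named ECPAS, fell by 0.12 (adjusted p = 0.00554) and TXNL1, a thioredoxin of the cap, by 0.13 (adjusted p = 0.0143, lost without siNC_3 or siYKT6_2), while PITHD1, which shares a domain with TXNL1, rose by 0.37 (adjusted p = 1.62e-05, edgeR). POMP, which drives beta ring assembly, had a log2 fold change of 0.067 (adjusted p = 0.172, edgeR).

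NFE2L1 is the transcription factor that raises proteasome genes when the proteasome is blocked, after NGLY1 and the protease DDI2 have released it. NFE2L1 had 592.6, 597.5 and 604.1 CPM with siNC and 526.3, 528.5 and 547.7 CPM with siYKT6, and fell by 0.16 on the log2 scale (adjusted p = 0.000225, edgeR). Its relative NFE2L2 fell by 0.20 (adjusted p = 5.75e-05) and DDI2 by 0.15 (adjusted p = 0.00611), the partner MAFG rose by 0.25 (adjusted p = 0.000208) and NFYB by 0.12 (adjusted p = 0.0136, edgeR, lost without siNC_3). NGLY1, MAFF, MAFK, NFYA and NFYC did not pass the test (MAFF did without siYKT6_3, adjusted p = 0.0481, edgeR), and DDI1 was not tested. Of the 10 genes tested 3 fell and 2 rose (50% called). Among all tested genes 30.8% were called, and 45.8% of those at or above the lowest member's mean CPM. All these are mRNA levels, and neither the release of NFE2L1 nor proteasome activity was measured.

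For the supply of substrates, 3 of 5 shuttle factor genes fell and 0 rose (60% called). Of all tested genes 16.3% were lower and 30.8% called, and 45.8% of those at or above the lowest member's mean CPM were called. The shuttle factor counts were the same at an unadjusted p under 0.05 and with DESeq2. RAD23B, which carries ubiquitinated proteins to the cap, fell by 0.098 (adjusted p = 0.0189) and UBQLN4 by 0.11 (adjusted p = 0.0344, edgeR). Both calls were lost with upper quartile scaling (adjusted p = 0.0582 and 0.079) and with no filter (0.0517 and 0.135, edgeR). RAD23B also lost its call without siNC_1 or siYKT6_2, and UBQLN4 on omission of any library but siYKT6_3. The other was DDI2, given above. Of the VCP unfoldase complex, which extracts substrates, the cofactors UFD1L (now named UFD1) and NPLOC4, which bind each other, rose by 0.25 and 0.20 (adjusted p = 3.25e-05 and 4.6e-05), FAF2 fell by 0.16 (adjusted p = 0.000966) and VCP itself had a log2 fold change of 0.087 (adjusted p = 0.115, and 0.0277 without siNC_3, edgeR). FAF1 had no call (-0.082) but was called lower without siYKT6_3 (adjusted p = 0.037, edgeR). Of 4 ubiquitin genes and activating enzymes RPS27A, a ubiquitin and ribosomal protein fusion, fell by 0.24 (adjusted p = 1.68e-05, edgeR), and UBB, UBA1 and UBA6 did not pass the test. The share called was 50% of the 6 VCP complex genes and 25% of these 4. The shares of 30.8% and 45.8% given above are the background for both lists.

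**Figure D5:**
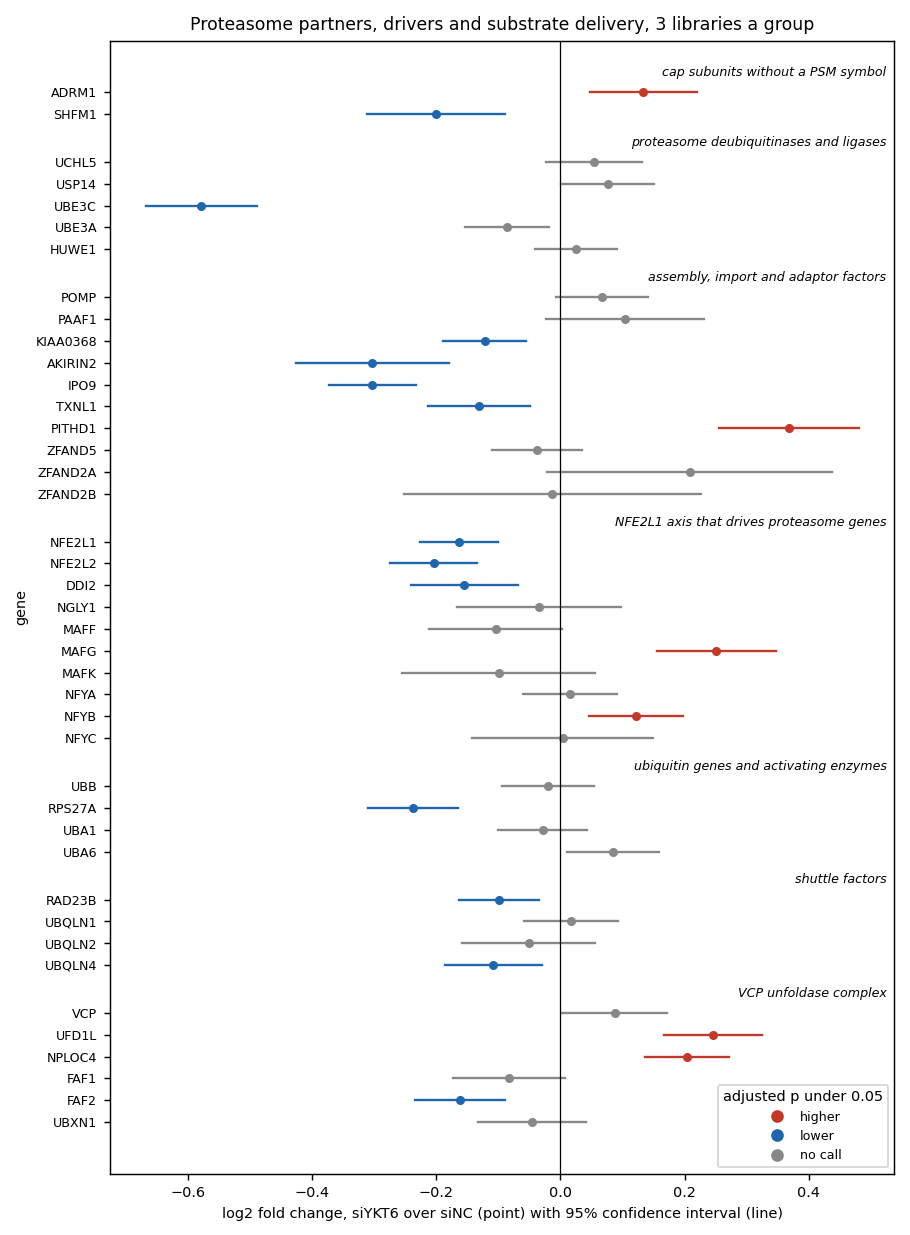
Log2 fold change (siYKT6 over siNC, horizontal axis) with 95% confidence interval of 41 genes that work with the proteasome, grouped by role. UBE3C (-0.58) fell the furthest and PITHD1 (0.37) rose the furthest, against a range of -0.31 to 0.24 for the proteasome genes themselves.

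The word CTCTACA in a 3′ UTR had been picked in earlier work on these same samples, for going with lower values after siYKT6, so its counts are no independent evidence. In the canonical GENCODE transcripts it was in the 3′ UTR of 3 of 46 members (PSMA5, PSMB2 and PSMC2; 6.52%) and of 10.2% of all tested genes with a 3′ UTR. None of the 6 members that fell held it, and PSMC2, which rose, did. Of the 13 partner genes that fell 2 held it (UBE3C and FAF2, 15.4%), beside 18.5% of all tested genes called lower, as did 1 of the 6 that rose (NFYB) and 3 of the 22 with no call (FAF1, MAFF and NFYA). The sites of PSMC2 (plus strand, chr7:103368335-103368341) and UBE3C (plus strand, chr7:157268842-157268848) are shown because the genes moved in opposite directions, with the word in capitals and 10 bases on either side.
PSMC2: tggccgggtgCTCTACAtataaattct
UBE3C: tgattttagtCTCTACAaacagaaagc

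Pseudogenes and antisense genes of the members were mostly near 0 counts. PSMC1P1 had the most of any pseudogene with 490 to 822 counts, and a log2 fold change of 0.14 (adjusted p = 0.129, edgeR). PSMA3-AS1 rose by 0.11 (adjusted p = 0.034) and PSMD5-AS1 fell by 0.18 (adjusted p = 0.0461, edgeR) on the log2 scale, while PSMA3 (-0.064) and PSMD5 (-0.059) had no call.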

How the data were processed

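RNA was measured in 6 libraries of 5637 cells. According to the methods and the submitters' processing notes, the authors made stranded mRNA libraries, and after cleaning (fastp 0.23.0) and alignment to GRCh38 the reads in exons were counted per gene with featureCounts (Subread 1.5.1). The deposited values are raw counts. The aligner and the strand option for counting reads were not given in the sources used here. Of the counts from 1 to 20, 68.8% to 70.0% were even, so an alternative halved the counts. Intervals cover the spread between samples, and the depth is given in the report.

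Genes were filtered with filterByExpr (21036 kept), scaled by TMM and tested with edgeR 4.0.16 (glmQLFit, glmQLFTest, R 4.3.3) over all genes, with Benjamini-Hochberg adjustment and a threshold of 0.05. CPM are reads per 1000000 of the TMM-adjusted library size. The standard error is the size of the log2 fold change divided by the square root of F. The script was tested on simulated data. DESeq2 1.42.0 and limma 3.58.1 (voom) were alternatives, beside other scalings and filters, the replicate number as a block, and the omission of each library. Pairs of libraries of the same group differed by a mean chi-square of 3.63 to 5.99 per gene, so all were kept as separate samples.

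The members and lists were chosen with earlier results of these data known. A few genes of the lists are not reported here and were left out of the lists' counts. The genes named are YKT6, the immunoproteasome genes with their counterparts, the activators, PSMF1 and the chaperones, and in every other class and list up to 4 called genes of smallest p in each direction. Genes at or near the threshold, those whose call a single library changed, overlapping genes, antisense genes and a few others with no call were named after their values were seen. Motifs were searched in RefSeq windows (GRCh38.p14) and the 3′ UTR word in canonical transcripts of the GENCODE annotation (GRCh38).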

Additional observations from a re-analysis of the deposited data

How the results depend on the processing

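With 3 libraries a group, small changes sit near the threshold. Of the 12 members with a call 6 kept it in all 14 alternatives (PSMC2, PSMC4, PSMD1, PSMD2, PSME3 and PSME4), 6 lost it in at least 1, and no call changed its direction. Of the 33 without a call 31 had none in any alternative. Leaving out 1 library at a time gave 3 to 6 members called higher, 0 to 1 core members called higher and 1 to 2 cap members called lower. No other count over all genes, members, core or cap moved by over 1.5 times, and the log2 fold change of YKT6 stayed between -1.91 and -1.83.

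With the replicate block 0 core members were called higher, since PSMA6 lost its call, and 5 members were called higher and 6 lower. Same-numbered samples did not deviate together (correlations of their deviations -0.0032, -0.043 and 0.013), so no pairing by number was seen. With 3 libraries a group, these correlations cannot show whether samples were prepared in pairs.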
